A study of Homo sapiens with 4 samples.

Results

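The transient knockdown of ZEB2 was examined in MDA-MB-231, an established line of human breast cancer cells with mesenchymal features that lacks hormone receptors. It consists of 2 of the series' 4 Affymetrix U133 Plus 2 arrays, chosen by the sample titles: cells given a pool of small interfering RNAs (siRNA) against ZEB2, and cells given siRNA against luciferase, a firefly gene that human cells lack. Both cultures grew on plastic in Leibovitz-15 medium with serum and carried no other genetic change named in the labels. Both received siRNA at 20 nM with the same lipid reagent, were washed after 24 hours, and gave their RNA after a further 48 hours. The other 2 arrays hold cells stably transduced with a short hairpin RNA (shRNA) against ZEB2 and cells with the empty vector control pLVTH, and share no array with the siRNA pair. The sequences of the siRNAs are not given in the sources used here, so a pool of unknown members stands for the loss of the gene. Each group had 1 array, so no difference has a replicate check, no test was possible within the pair, and the precision of every value is limited by that number. Values are log2 expression values, and a difference is ZEB2 siRNA minus luciferase siRNA, where 1 unit is 2-fold and 0.585 is 1.5-fold. A gene is represented by its brightest probe set, a group of probes designed on the same transcript, and 15082 of 19775 genes reached the filter level of 4.77 on at least 1 of the 4 arrays.

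ZEB2, also known as SIP1, is a zinc-finger and homeodomain protein that binds paired E-box letters in promoters and recruits corepressors. In carcinoma cells it is known for repressing CDH1, which encodes E-cadherin, together with other genes of tight junctions, desmosomes and cell polarity, and so for driving the epithelial-mesenchymal transition (EMT). Its paralog ZEB1, the SNAI and TWIST factors and the SOX factors act in the same transition, and GRHL, OVOL and ELF factors act on the epithelial side.

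Promoters of genes that differed are shown first, because ZEB factors bind the letters CAGGTG and CAGGTA. The sequences are the 200 bases before the listed transcription start in the RefSeq promoter table of GRCh38.p14, 5′ to 3′ along the gene, with each CAGGTG or its reverse complement CACCTG in capitals. LTB and HINT1 were more than 1.5-fold higher with the ZEB2 siRNA, and SCG5 was lower. CLDN1 was higher and has no match in its entry. CRB3 and PATJ are polarity genes of the list known as repressed by ZEB factors, with the most matches among the genes of that list that had an entry.
LTB, chr6:31582426-31582625, minus strand: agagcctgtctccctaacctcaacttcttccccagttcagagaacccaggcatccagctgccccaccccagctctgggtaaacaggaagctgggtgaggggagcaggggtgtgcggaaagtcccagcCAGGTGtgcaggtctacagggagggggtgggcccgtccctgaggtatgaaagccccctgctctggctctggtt
HINT1, chr5:131165257-131165456, minus strand: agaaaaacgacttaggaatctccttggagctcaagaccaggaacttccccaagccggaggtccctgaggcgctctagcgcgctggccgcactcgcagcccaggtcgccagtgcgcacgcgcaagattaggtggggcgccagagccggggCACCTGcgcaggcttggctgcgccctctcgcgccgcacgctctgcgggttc
SCG5, chr15:32641510-32641709, plus strand: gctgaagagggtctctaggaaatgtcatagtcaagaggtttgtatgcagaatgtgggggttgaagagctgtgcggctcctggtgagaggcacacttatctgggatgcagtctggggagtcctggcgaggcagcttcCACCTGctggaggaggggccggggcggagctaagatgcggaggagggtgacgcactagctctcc
CLDN1, chr3:190322447-190322646, minus strand: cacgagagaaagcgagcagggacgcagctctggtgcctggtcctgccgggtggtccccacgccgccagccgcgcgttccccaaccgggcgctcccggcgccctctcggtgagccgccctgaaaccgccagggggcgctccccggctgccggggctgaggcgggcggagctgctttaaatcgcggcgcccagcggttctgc
CRB3, chr19:6464071-6464270, plus strand: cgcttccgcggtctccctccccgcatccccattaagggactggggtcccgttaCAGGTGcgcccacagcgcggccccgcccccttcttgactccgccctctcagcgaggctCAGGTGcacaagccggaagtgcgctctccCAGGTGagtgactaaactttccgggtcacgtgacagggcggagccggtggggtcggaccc
PATJ, chr1:61742280-61742479, plus strand: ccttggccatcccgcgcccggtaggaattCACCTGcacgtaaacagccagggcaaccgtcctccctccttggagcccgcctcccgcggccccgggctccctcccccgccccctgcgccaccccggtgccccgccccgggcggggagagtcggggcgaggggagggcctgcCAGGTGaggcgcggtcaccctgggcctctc

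Each table entry holds 300 bases, 250 before the start and 50 after it, and both strands were searched for CAGGTG and CAGGTA. In the whole entry CRB3 has 5 matches and PATJ has 3. Of the genes at least 1.5-fold higher, 77 had an entry, and 35.1% of these entries held at least 1 match. The share was 22.4% of 170 entries of genes at least 1.5-fold lower, 24.8% of 11984 entries of genes kept and 28.0% of all 27305 entries. Between 100 bases before and 50 after the start the shares were 11.7%, 11.8%, 11.5% and 14.5%, so the gap between higher and lower genes was absent in the shorter window. In the list of junction genes known as repressed by ZEB factors, 5 of 9 entries held a match, those of DSP, GJB2, OCLN, CRB3 and PATJ. The other genes of that list, CDH1 and EPCAM among them, had no entry and were not searched. Where a gene had more than 1 start in the promoter table, the first listed was used. A match is a description of letters and shows neither binding nor a response.

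The siRNA arrays carried the marks of the line. All 10 markers set for MDA-MB-231, such as VIM, CD44, EGFR and AXL, lay between 9.66 and 13.79. Of the genes set as low or absent, PGR was under the filter level, ESR1 read 6.17 and 6.54, and GATA3, a luminal factor, read 9.27 and 9.48, against that label. Of 13 leukocyte markers on the array 9 reached the filter level, and the log2 of their summed level was 10.3 with luciferase siRNA and 10.36 with ZEB2 siRNA. The brightest of them were LAPTM5, at 9.5 and 9.62, and CD14, at 7.3 and 6.94, while the pan-leukocyte gene PTPRC stayed at 3.45 and 3.44. The fibroblast sum was 9.71 and 9.66, with 4 of 7 markers at the filter level and LUM the brightest, at 8.99 and 8.71. The endothelial sum was 8.36 and 8.52, with 5 of 6 at that level. The part of these markers in the results below was not tested. Labelling used 100 ng of RNA for the siRNA arrays and 2 µg for the shRNA arrays. The 3′ minus 5′ difference of ACTB probe sets was 0.50 and 0.52 on the siRNA arrays, close within the pair, and -0.04 and -0.03 on the shRNA arrays. Spiked polyA transcripts, which should be equal between arrays, differed by -0.39 to 0.06 within the siRNA pair (median -0.16 over 24 probe sets). Hybridisation spikes differed by -0.24 to 0.11, and 0 of either kind reached 1.5-fold. The 17 human control probe sets differed by -0.17 to 0.39 (median 0.13), as much as many list medians below. Within the shRNA pair the polyA spikes differed more, by -0.95 to -0.35 (median -0.66), which limits the reading of that pair.

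ZEB2 had the lowest difference of any gene kept. Its brightest probe set read 6.56 with luciferase siRNA and 3.51 with the pool, a difference of -3.05. The second value lies under the filter level, so the size of the difference cannot be read exactly. The only other ZEB2 probe set above that level on a siRNA array read 5.21 and 3.71. A difference of 1.5-fold or more was read for 104 of 15082 genes in the higher direction (0.69%) and for 228 in the lower direction (1.51%), so 68.7% of the 332 genes past 1.5-fold (2.2%) were lower. Of all genes 46.0% were higher and 53.7% lower, with a median difference of -0.018 and a standard deviation over genes of 0.235. At 2-fold there were 7 higher (0.0464%) and 19 lower genes (0.126%). When a gene's probe sets were averaged instead, the counts past 1.5-fold were 60 higher and 123 lower, and those past 2-fold were 3 and 10. In RNA from whole cultures, fewer cells expressing a gene and less RNA per cell cannot be told apart.

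**Figure D1:**
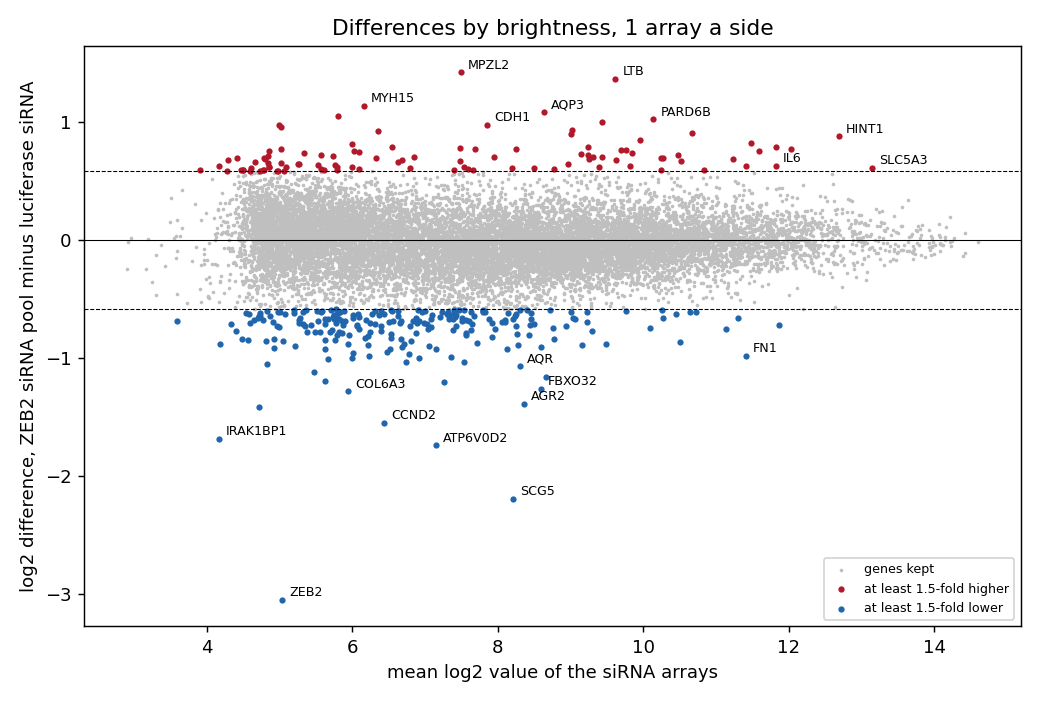
Each point is 1 of 15082 genes, with its mean log2 value over the siRNA arrays on the horizontal axis and its log2 difference, ZEB2 siRNA pool minus luciferase siRNA, on the vertical axis. Dashed lines mark 1.5-fold, red points are the 104 higher and blue points the 228 lower genes, and ZEB2 lies lowest at -3.05.

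The calls did not spread evenly over brightness. Ordered by mean level, the 3771 dimmest genes held 41 higher and 75 lower past 1.5-fold, the next 3770 held 21 and 97, the following 3770 held 16 and 43, and the 3771 brightest held 26 and 13. The median difference was 0.05 among the dimmest, -0.039 and -0.06 in the middle groups and -0.015 among the brightest. On at least 1 siRNA array, 27 of the 104 and 32 of the 228 genes were under the filter level, so part of each list rests on the dim end of the scale. The standard deviation of differences was 0.261 among the 3771 dimmest genes and 0.189 among the 3771 brightest. Genes just inside 1.5-fold were TMEM40 at 0.585, BAGE2 at 0.5851 and GRASLND at 0.587, and NLRC5, PBX2 and EPB41L4A-AS1 at -0.5869, -0.5878 and -0.5881. Just outside were NUP62CL at 0.5826, VIPR1 at 0.5809 and SNHG27 at 0.5789, and OPA1, GAD1 and DDX10 at -0.5847, -0.5843 and -0.5837. The edge of the lists therefore separates genes that differ by less than 0.01.

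Epithelial adhesion, tight junction and polarity genes supplied 6 of the 104 higher genes and 0 of the 228 lower ones, where 0.69% and 1.51% of all genes were past 1.5-fold. Of 47 genes of that list, 32 were higher and 15 lower (median 0.053, against -0.018 for all genes), and 12.8% were past 1.5-fold, against 2.2% of all genes. This list, like the others below, was chosen with earlier results of these data known, so the shares only describe these arrays. MPZL2, a homophilic adhesion protein of epithelia, read 6.78 with luciferase siRNA and 8.20 with ZEB2 siRNA, and was 2.68-fold higher. Its second probe set above the filter level read 5.93 and 6.73. PARD6B, a subunit of the PAR polarity complex, went from 9.63 to 10.65, and a dimmer PARD6B probe set differed by 0.33. CDH1 read 7.37 and 8.35, 1.97-fold higher, and its second probe set, dim on both arrays, read 4.25 and 4.69. In the shRNA pair CDH1 read 3.54 and 4.26, under the filter level. The control arrays of the pairs thus differed in this gene, and culture and labelling cannot be told apart. MAL2, a protein of apical membrane traffic, read 11.43 and 12.22 on its single probe set. CLDN1, the tight junction strand protein claudin-1, read 9.31 and 10.08, with a second probe set at 7.62 and 8.16. EPCAM, an epithelial adhesion molecule, read 8.47 and 9.07. The lowest members were CDH3, which encodes P-cadherin, at -0.54, LLGL1 at -0.53 and LLGL2 at -0.43, polarity genes of the basolateral side.

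The 16 junction genes known as repressed by ZEB2 or ZEB1 did not differ alike. Of these, 10 were higher and 6 lower (median 0.112), and 2 were past 1.5-fold, CDH1 and EPCAM. PATJ, a scaffold of the Crumbs complex, read 5.68 and 6.22 (0.54), the desmosomal plakophilin gene PKP2 read 8.99 and 9.45 (0.47), CRB3 read 7.06 and 7.42 (0.36), and the surface protease gene ST14 read 6.10 and 6.44 (0.34). PKP3 at 0.21, CLDN7 at 0.13, the connexin gene GJB2 at 0.10 and OCLN at 0.06 were higher by less than the standard deviation over all genes. TJP3 at -0.02, CLDN4 at -0.05, DSP at -0.09 and MARVELD2 at -0.09 were near the median of all genes, and LLGL2 and CDH3 were the lowest. DSP, the desmosomal plaque protein, read 11.56 and 11.47, and CLDN4, a claudin, read 9.22 and 9.17, so both were well above the filter level on either array. Promoter entries existed for 9 of the 16 genes, CDH1 and EPCAM not among them. Of the 5 genes with E-box letters in their entries, PATJ and CRB3 were higher by over 0.3. DSP, GJB2 and OCLN differed by -0.09, 0.10 and 0.06.

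Desmosome, hemidesmosome and cornified envelope genes were mostly higher by small amounts, 15 of 20, with a median of 0.098. PPL, which encodes periplakin, a linker of desmosomes to keratin filaments, read 8.55 and 9.49 and was the 1 member past 1.5-fold. ITGB4, the hemidesmosomal integrin chain, read 6.74 and 7.26 (0.53). At the low end were PLEC at -0.20 and SPRR3 at -0.14. Connexin and pannexin genes were higher in 9 of 11, with a median of 0.112 and 0 past 1.5-fold, from GJA3 at -0.46 and GJA1 at -0.10 to GJC1 at 0.35 and GJD2 at 0.37. Most of the higher connexins were dim, and the list's median level with luciferase siRNA was 5.98. Basal breast genes were higher in 14 of 20, with a median of 0.155, led by ITGB4 and the calcium-binding protein gene S100A2 at 0.45. The exceptions included the basal keratin gene KRT15, which read 6.50 and 5.51 and was past 1.5-fold lower, and CDH3. Keratins split 11 higher and 13 lower, and with the filter at the 60th percentile 8 were left, with 8 lower and a median of -0.193. Past 1.5-fold lower were 3 of the 24: KRT15, KRT33A at -0.78 and KRT19, which read 11.52 and 10.77.

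Transcription factors of the EMT went both ways. Of 13 factors kept, 8 were higher and 5 lower, with ZEB2 counted among the lower, and the median was 0.106, or -0.089 with the filter at the 60th percentile. ZEB1 read 10.12 and 10.25, and SNAI2 11.68 and 11.42. TCF3 differed by -0.09 and SOX9 by -0.33. SNAI1 and PRRX1, counted among the higher, lay under the filter level on both siRNA arrays, at 4.56 and 4.75 and at 4.60 and 4.73, and are not readable there. SOX4 was past 1.5-fold lower at 9.68 and 8.92, with its next probe set at 8.35 and 7.42. The other 4 SOX4 probe sets above the filter level lay between -0.25 and 0.21. None of the remaining factors was past 1.5-fold: GRHL1 was at 0.44 from 4.51, under the filter level, ELF3 at 0.24, OVOL1 at 0.19, KLF4 at 0.11 and KLF5 at 0.10. TWIST1, TWIST2, SNAI3, FOXC2, GSC, TCF4, KLF8, OVOL2, GRHL2, GRHL3, ELF5 and ESRP1 stayed under the filter level on all 4 arrays, so their differences are not readable here. Mesenchymal markers split 15 higher and 12 lower, with a median of 0.027, and FN1, which encodes fibronectin, was the 1 member past 1.5-fold.

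Of the matrix genes, FN1 had several probe sets. Its brightest read 11.90 with luciferase siRNA and 10.92 with ZEB2 siRNA, and the next 3 differed by -1.08, -1.06 and -1.03. The fifth in brightness read 5.49 and 5.79 and was higher by 0.30. COL6A3, a collagen VI chain with 1 probe set, read 6.59 and 5.31. Of 68 collagen, laminin and other matrix genes these were the 2 past 1.5-fold, and the list's median was -0.008. Among 108 genes of matrix enzymes and inhibitors, PAPPA, a protease of insulin-like growth factor binding proteins, read 7.50 and 6.61, and 4 of its 7 other probe sets above the filter level were also past 1.5-fold lower. The hyaluronan synthase gene HAS2 read 7.39 and 6.68, and its second probe set 6.38 and 5.73. CEMIP, which takes part in hyaluronan breakdown, differed the other way, reading 10.22 and 11.13, though its second probe set differed by 0.24. LOXL4, a collagen cross-linking enzyme, was higher by 0.70 and the collagenolytic cathepsin gene CTSK differed by -0.63. The median of the enzyme list was 0.024.

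**Figure D2:**
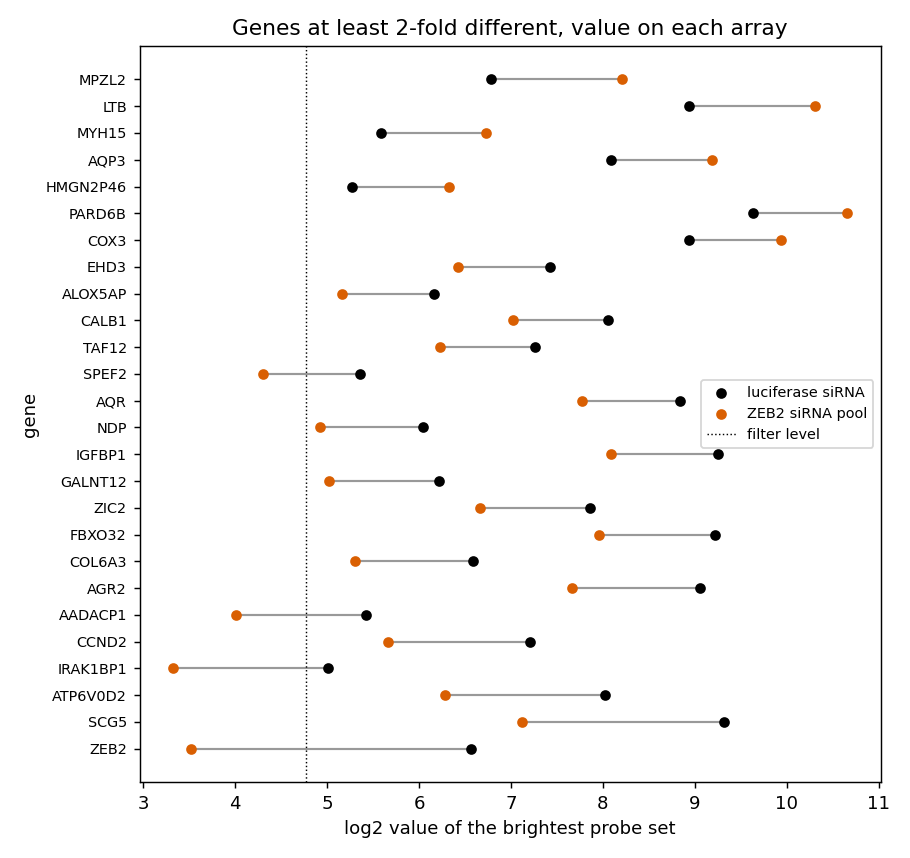
Log2 values of the brightest probe set on the luciferase siRNA array (black) and the ZEB2 siRNA array (orange) for the 26 genes at least 2-fold different, 7 higher and 19 lower. The dotted line is the filter level of 4.77, and ZEB2, IRAK1BP1, AADACP1 and SPEF2 end below it.

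Genes of secretion had the lowest difference after ZEB2. SCG5, which encodes the 7B2 chaperone of prohormone convertase 2, read 9.31 and 7.12 and was lower on its single probe set. RAB27B, a GTPase of granule release, read 10.47 and 9.72, with other probe sets at -0.71 and -0.50, and CADPS2, a granule priming factor, read 6.42 and 5.71. CPE, the carboxypeptidase that trims prohormones, went the other way at 7.90 and 8.51, and its second probe set read 7.55 and 8.82. The list of 27 granule and prohormone genes therefore held 3 lower and 1 higher past 1.5-fold, with a median of 0.007, close to that of all genes. ATP6V0D2, a tissue-restricted subunit of the vacuolar proton pump, read 8.02 and 6.28, and its other 2 probe sets differed by -1.83 and -1.87. The remaining pump subunits did not follow: of 22 measured 9 were higher and 13 lower (median -0.017), and ATP6V1E2 was next lowest at -0.41. VAMP3, a membrane fusion protein of recycling endosomes, read 11.22 and 11.98, and its other 2 probe sets were higher by 0.89 and 0.73. AGR2, a disulphide isomerase of secretory epithelia, read 9.05 and 7.67, with a second probe set at 5.29 and 4.43. EHD3, of the endosome recycling family, read 7.43 and 6.42 and its dimmer probe set differed by -0.39.

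Growth factor genes and their feedback genes went both ways. NRG1, a ligand of ERBB receptors, read 11.06 and 11.89 on its brightest probe set, while 2 others were at 0.70 and 0.02 and 3 were at -0.38, -0.45 and -0.61, so the direction depended on the probe set. The ligands EREG, TGFA and HBEGF were higher by 0.42, 0.34 and 0.29. Some feedback inhibitors of receptor signalling were lower. DUSP6, a phosphatase of ERK, read 11.63 and 10.97 with other probe sets at -0.58 and -0.70, SPRY4 read 9.02 and 8.42, and SPRY1, DUSP5 and SPRY2 differed by -0.41, -0.36 and -0.13. The related SPRED1 and SPRED2 were at 0.10 and 0.15. Over the 23 genes of this list 12 were higher and 11 lower. Of the insulin-like growth factor genes, IGFBP1 read 9.25 and 8.09. Its other probe set was under the filter level on both siRNA arrays, and the mean difference over both probe sets was -0.52. IGFBP3 read 8.62 and 7.89, with a second probe set at -0.78, whereas IGFBP7 and IGFBP4 were higher by 0.37 and 0.34. These proteins bind the growth factors outside the cell. In the TGF-beta and BMP list of 50 genes, the ligand gene TGFB2 was higher by 0.60 and the inhibitor of basic helix-loop-helix factors ID2 read 5.59 and 6.41, while LTBP1, which anchors latent TGF-beta, differed by -0.59. The other TGFB2 probe sets lay between -0.44 and 0.29, and the other LTBP1 probe set differed by -0.12. The median of that list was -0.064, with 21 genes higher and 29 lower.

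Of the Notch list, 3 of 25 genes were past 1.5-fold lower, where 1.51% of all genes were. HEY1 read 7.14 and 6.23 with a second probe set at -0.48, and HES1 read 7.95 and 7.26 with a second probe set at 6.75 and 6.04. Both are repressors transcribed on Notch signalling. LFNG, a glycosyltransferase that modifies Notch receptors, read 6.53 and 5.86, but its second probe set differed by only -0.12. HES4 at -0.51, the ligand JAG1 at -0.39 and NOTCH1 at -0.29 followed. HES2 and NOTCH3 were the highest at 0.28 and 0.26, and the target NRARP was at 0.17. Of the 25 genes 16 were lower (53.7% of all genes were), with a median of -0.021 that turned to 0.03 under quantile normalization and 0.012 under cyclic loess. In the Wnt list of 44 genes the median was 0.057, and 3 genes were past 1.5-fold lower: NDP, which encodes the Frizzled ligand norrin, at 6.04 and 4.93, and the receptor genes FZD3 at -0.85 and FZD4 at -0.62. FZD4 is the receptor of norrin, and both genes read lower, NDP on a single probe set and FZD4 with a second probe set at only -0.31. The other FZD3 probe sets above the filter level differed by -0.38 and -0.45. HHIP, a decoy receptor of hedgehog ligands, read 6.08 and 5.16, with a second probe set at 5.65 and 5.05, and the 16 hedgehog genes had a median of -0.045.

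Inflammatory genes went both ways. LTB, which encodes the membrane cytokine lymphotoxin beta, read 8.93 and 10.31 and was 2.59-fold higher on its brightest probe set. Its other probe set was under the filter level on both siRNA arrays, and the mean difference over both probe sets was 0.73. The receptor gene TNFRSF9 read 7.59 and 8.30, with other probe sets at 0.23 and 0.32. IL6, a cytokine, read 11.51 and 12.14, but 5.98 on the shRNA control array and 7.5 with the ZEB2 hairpin. IL11, a cytokine of the same receptor family, read 8.85 and 8.14 on its brightest probe set, but 7.01 and 7.02 on the other. PTGS2, the inducible cyclooxygenase, read 8.27 and 7.57 with a second probe set at -0.67. TNFAIP6, a hyaluronan-binding protein, read 5.61 and 4.96 and its second probe set differed by -1.82. Of 113 cytokine, chemokine and NF-kB genes 54 were higher and 58 lower (median -0.013), close to that of all genes. The list of prostaglandin, phospholipase and leukotriene genes had 4 of 41 members past 1.5-fold, where 2.2% of all genes were, and these 4 were lower. They were ALOX5AP, which presents arachidonic acid to lipoxygenase, at 6.17 and 5.16, PTGS2, and the phospholipase gene PLCG2 at -0.61. The remaining one, PLA2G4A, lay under the filter level on both siRNA arrays and is not readable there. The median of the 41 genes was 0.027. Among the 68 interferon-stimulated genes, which double-stranded RNA can induce, 25 were higher and 43 lower (median -0.037, turning to 0.013 under quantile normalization and 0.006 under cyclic loess). MX2 at -0.60 was the 1 member past 1.5-fold. The 21 small-RNA pathway genes lay between -0.32 and 0.17.

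Of 32 cyclins, kinases and inhibitors 2 were past 1.5-fold, 1 each way, and both are D-type cyclins. CCND2 read 7.21 and 5.66 on its brightest probe set, and no other CCND2 probe set reached the filter level on a siRNA array. CCND1 read 9.95 and 10.55, with a second probe set at 8.58 and 9.02. The remaining D-type cyclin, CCND3, differed by 0.041. These cyclins pair with CDK4 and CDK6 to drive entry into the cell cycle. Over the list 16 genes were higher and 16 lower. Mitosis and spindle genes were higher in 43 of 63, with a median of 0.093, and 1 was past 1.5-fold, SGO1, the protector of centromeric cohesion, at 5.73 and 6.47. TOP2A at 0.53, MAD2L1 at 0.50 and ECT2 at 0.48 came next, while PLK1 at -0.20 and CENPU at -0.22 were at the low end. DNA replication genes were higher in 37 of 55, with a median of 0.062 and 0 past 1.5-fold, from POLD3 at -0.42 to DCK at 0.34. Histone genes lay on the other side, with 25 of 37 lower, a median of -0.17 and 0 past 1.5-fold. The shift of replication and mitosis genes was present under each scaling tried and was 0.018 for replication genes when probe sets were averaged.

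Several biosynthetic pathways were lower in a large majority of members, by small amounts. Sterol and fatty acid synthesis genes, which the SREBP factors switch on, were lower in 34 of 37, with a median of -0.259, and 2 were past 1.5-fold (5.41%). ACSS2, the cytosolic acetyl-CoA synthetase, read 9.94 and 9.06. LPIN1, a phosphatidate phosphatase, read 10.77 and 10.14, with other probe sets at -0.60 and -0.70. DHCR7, the last enzyme of cholesterol synthesis, differed by -0.57, the fatty acid synthase FASN by -0.56, INSIG1 by -0.51 and SQLE by -0.48. HMGCS1 at -0.05 and MVK, which read 8.36 and 8.35, did not share that size, and NPC1L1 (0.49, dim) and INSIG2 (0.07) were the highest. With the mean of all probe sets the median was -0.155, with 33 of 37 lower, and cyclic loess left 28 of 37 lower.

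Genes of the ATF4 amino acid response were lower in 31 of 36, with a median of -0.228. DDIT4, an inhibitor of mTORC1, read 10.95 and 10.34, and TRIB3, a pseudokinase of the stress response, read 11.03 and 10.43, with a second probe set at 8.34 and 7.47. These 2 were past 1.5-fold (5.56%). The amino acid transporter SLC1A5 differed by -0.53, DDIT3 by -0.50, the asparagine synthetase ASNS by -0.48 and PHGDH by -0.45. ATF4 itself differed by -0.11, and CTH, an enzyme of cysteine synthesis, was highest at 0.38, followed by FGF21 at 0.32. Cytosolic aminoacyl-tRNA synthetases, which charge tRNAs and are in part ATF4 targets, were lower in 16 of 18, with a median of -0.227. YARS1 read 10.60 and 9.95, with a second probe set at -0.18. VARS1 differed by -0.56, and TARS1 and HARS1 were the higher ones at 0.10 and 0.04. Chaperones and unfolded protein response genes of the endoplasmic reticulum were lower in 30 of 38, with a median of -0.114 and 0 past 1.5-fold. HYOU1 at -0.51 and SERP1 at -0.45 were lowest, HSPA5, the chaperone BiP, read 13.01 and 12.80, and EDEM3 and EIF2AK3 were highest at 0.20.

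Ribosomal protein genes shifted by less. Of 61 cytosolic ones 52 were lower, with a median of -0.06, and the lowest were RPL3 at -0.26 and FAU at -0.20. Their median level was 13.64, and the 3771 brightest genes had a median difference of -0.015. Mitochondrial ribosomal protein genes were lower in 54 of 75, with a median of -0.051, from MRPL54 at -0.26 and MRPL17 at -0.25 to MRPL14 at 0.23 and MRPL20 at 0.36. Cyclic loess gave them a median of -0.018. Respiratory chain genes had a median of -0.018, equal to that of all genes, although 2 of 89 were past 1.5-fold higher. One was NDUFA1, a subunit of complex I, at 11.64 and 12.41. The other was COX3, encoded in mitochondrial DNA, at 8.94 and 9.94 on a probe set annotated as cross-hybridising. Hypoxia and glycolysis genes were lower in 31 of 49, with a median of -0.111, including DDIT4, CA12 at -0.65 and ALDOC at -0.63. Metallothioneins, which bind zinc and copper, were lower in 6 of 8, led by MT1E at 12.23 and 11.51. Pregnancy-specific glycoprotein and CEACAM genes were lower in 10 of 14, with a median of -0.295, and PSG5, PSG2 and PSG6 were past 1.5-fold. Both families have near-identical copies whose probe sets can read more than 1 member. Without cross-hybridising probe sets their medians were 0.049 over 2 metallothioneins and 0.084 over 9 PSG and CEACAM genes. S100 genes were higher in 9 of 12, but in 6 of 12 under median centring and 7 of 12 under cyclic loess, with a median of 0.065, with S100A1 at 0.47 and S100A2 at 0.45, yet S100P, at 7.26 and 6.30, was past 1.5-fold lower and S100A13 differed by -0.13.

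**Figure D3:**
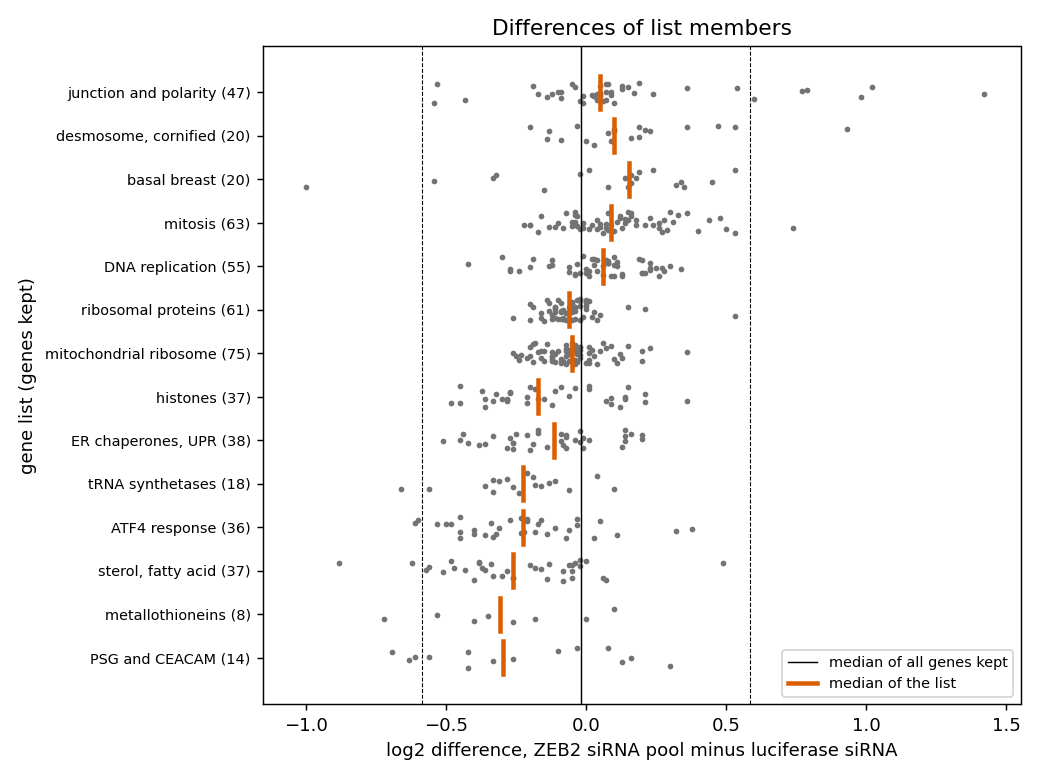
Each grey point is a gene of the named list at its log2 difference, ZEB2 siRNA pool minus luciferase siRNA, and orange bars are list medians. Sterol and ATF4 genes centre at -0.259 and -0.228 and mitosis genes at 0.093, against -0.018 for all genes (black line), with dashed lines at 1.5-fold.

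The leukocyte and stromal marker lists, 13 and 12 genes kept, had 10 higher genes each, with medians of 0.114 and 0.131 and 0 past 1.5-fold. Their highest were ITGAM at 0.45 and AIF1 at 0.27, and PLIN1 at 0.48 and TEK at 0.46. Their lowest were CD14 at -0.35 and CD8A at -0.11, and LUM at -0.28 and DCN, which read 5.58 and 5.57. Their median levels with luciferase siRNA were 5.30 and 5.99, in or near the range of the 3771 dimmest genes, whose median was 0.05. The dim connexins lay in the same range.

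Probe sets of the same gene read the same RNA and are not replicates, but they show whether a difference rests on 1 set of probes. Of the 332 genes, 151 had another probe set at or above the filter level on a siRNA array and 181 had none. The next brightest probe set had the same sign in 122 of 151 (80.8%), against 61.6% of 7236 genes kept that had one. It was itself past 1.5-fold the same way in 42 of 151 (27.8%), against 2.32% of all, and past 1.5-fold the opposite way in 1, ACSL4. Either way, 3.07% of the next brightest probe sets of all genes passed 1.5-fold. The agreement was 36 of 44 for sign among higher genes and 86 of 107 among lower genes, and 8 and 34 of these were past 1.5-fold. At 2-fold 11 genes had such a probe set, with the same sign in 11 and past 1.5-fold in 7. With dim probe sets counted too, 12 of 16 had the same sign and 7 were past 1.5-fold. For the 151 genes, the next brightest probe set had a median difference in the direction of the gene of 0.363, beside 0.693 for the brightest. Only the brightest had to be past 1.5-fold, so these medians are not on an equal footing, and the reason for the gap was not tested.

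**Figure D4:**
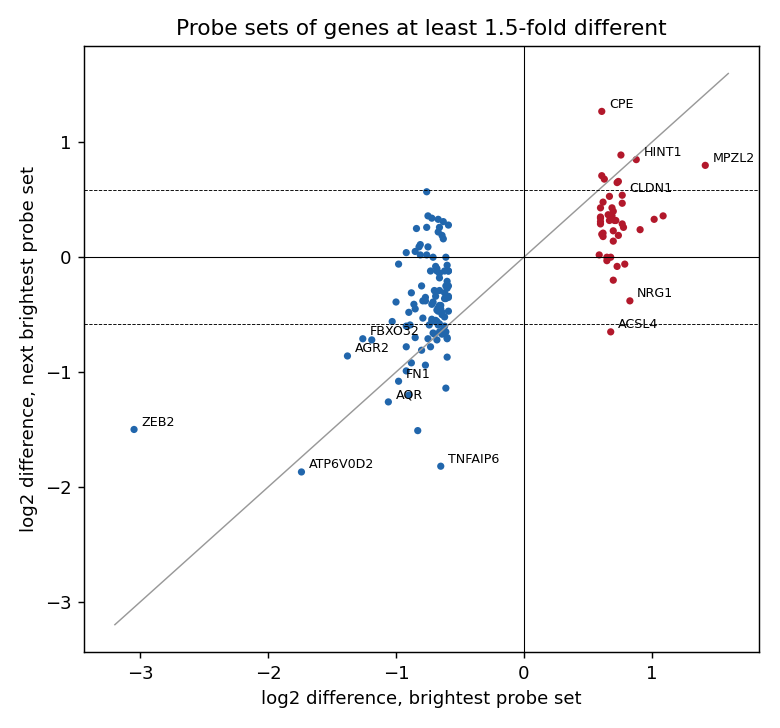
Log2 differences of the brightest (horizontal) and next brightest (vertical) probe set for the 151 genes at least 1.5-fold different that had both, red for higher and blue for lower genes. Dashed lines mark 1.5-fold for the next brightest probe set, and 122 points have the same sign on both axes.

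Further genes were carried by more than 1 probe set. HINT1, a nucleotide hydrolase of the histidine triad family, read 12.24 and 13.12, and 3 of its 4 other probe sets were higher by 0.85, 0.92 and 1.12, with the dimmest at 0.15. SLC5A3, the sodium-driven myo-inositol transporter, read 12.83 and 13.45, with others at 0.71, 0.52 and 1.10. AQR, a helicase of the spliceosome, read 8.84 and 7.77, and its other probe sets above the filter level differed by -1.26 and -1.01. Over 164 splicing genes the median was -0.031, and over 297 solute carriers it was -0.001. FBXO32, a ubiquitin ligase subunit also called atrogin-1, read 9.22 and 7.96, and its 5 other probe sets above the filter level lay between -0.93 and -0.69. GPCPD1, a glycerophosphocholine hydrolase, read 8.59 and 7.66, with others at -0.78 and -1.06. GALNT12, which starts mucin-type glycosylation, read 6.22 and 5.03, and a second probe set 5.62 and 4.90. SORBS2, an adaptor of actin and adhesion sites, read 6.95 and 6.12, with its next probe set at 7.17 and 5.65. CALHM6 at -0.92, the elastase inhibitor gene PI3 at -0.89, PCLO and RGS4 at -0.88 each, the transcription factor gene MEF2C at -0.85 and KCTD12 at -0.80 were lower on another probe set as well. Higher on another probe set were SERTAD4 at 0.77, the adhesion scaffold gene NEDD9 at 0.74, the guidance factor gene SEMA3C at 0.73 and LINC00472 at 0.63. In all, 10 of 104 higher genes and 46 of 228 lower ones had another probe set past 1.5-fold the same way.

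Other genes at 2-fold rested on fewer probes. MYH15, a myosin heavy chain gene, read 5.59 and 6.73, HMGN2P46 read 5.27 and 6.33, and AADACP1 read 5.42 and 4.01, each on 1 probe set. ZIC2, a zinc-finger factor, read 7.86 and 6.66, and TAF12, a subunit of the general factor TFIID, 7.26 and 6.23, also on 1 each. AQP3, a water and glycerol channel, read 8.09 and 9.18, and its other 2 probe sets were higher by 0.36 and 0.48. CALB1, the calcium buffer calbindin, read 8.05 and 7.02, with a second probe set at -0.56. IRAK1BP1, at 5.01 and 3.33, and SPEF2, at 5.35 and 4.30, ended under the filter level and had no other probe set above it. A single probe set carried 41 of 104 higher genes and 79 of 228 lower ones.

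The genes past 1.5-fold were then read in the stable shRNA pair, which shares no array with the siRNA pair and in which 1138 genes were at least 1.5-fold higher (7.55%) and 1073 lower (7.11%). Of the 104 higher genes 19 were also past 1.5-fold higher there (18.3% of the siRNA list and 1.67% of the shRNA list). Of the 228 lower genes 50, with ZEB2 among them by design, were also lower (21.9% and 4.66%). Opposite calls were as frequent among the lower genes, with 51 of 228 (22.4%) past 1.5-fold higher in the shRNA pair, and 10 of 104 (9.62%) of the higher genes were lower there. The sign was shared by 58 of 104 higher and 107 of 228 lower genes, and by 48.5% of all genes. Of the 6 junction genes past 1.5-fold, shRNA differences were 0.97 for MPZL2, 0.66 for CLDN1 and PARD6B, 0.55 for MAL2 and 1.39 for EPCAM. CDH1 was under the filter level on both shRNA arrays, and MPZL2 was under it on the shRNA control array, at 4.42. The control arrays of the pairs differed in level in most of these genes, and culture and labelling cannot be told apart. Luciferase siRNA and shRNA control values were 11.43 and 5.58 for MAL2, 9.31 and 5.69 for CLDN1, and 7.37 and 3.54 for CDH1. They were 6.78 and 4.42 for MPZL2, 9.63 and 7.95 for PARD6B, and 8.47 and 7.01 for EPCAM. Of the 56 genes with another probe set past 1.5-fold the same way in the siRNA pair, 14 were past 1.5-fold the same way in the shRNA pair, 13 the other way and 29 neither. Among the 14 were NEDD9 at 3.31, RGS4 at -1.70 and HES1 at -1.44, and among the 13 MEF2C at 1.51 and AGR2 at 1.28. Of the 29, AQR differed by 0.09, HINT1 by 0.19, ATP6V0D2 by -0.44 and VAMP3 by -0.55, and FN1 by 0.54. Sterol genes had a median of 0.43 there, with 33 of 37 higher, and ATF4 genes 0.695, with 29 of 36 higher, opposite to the siRNA pair. Endoplasmic reticulum chaperones were lower in 30 of 38 in each pair.

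**Figure D5:**
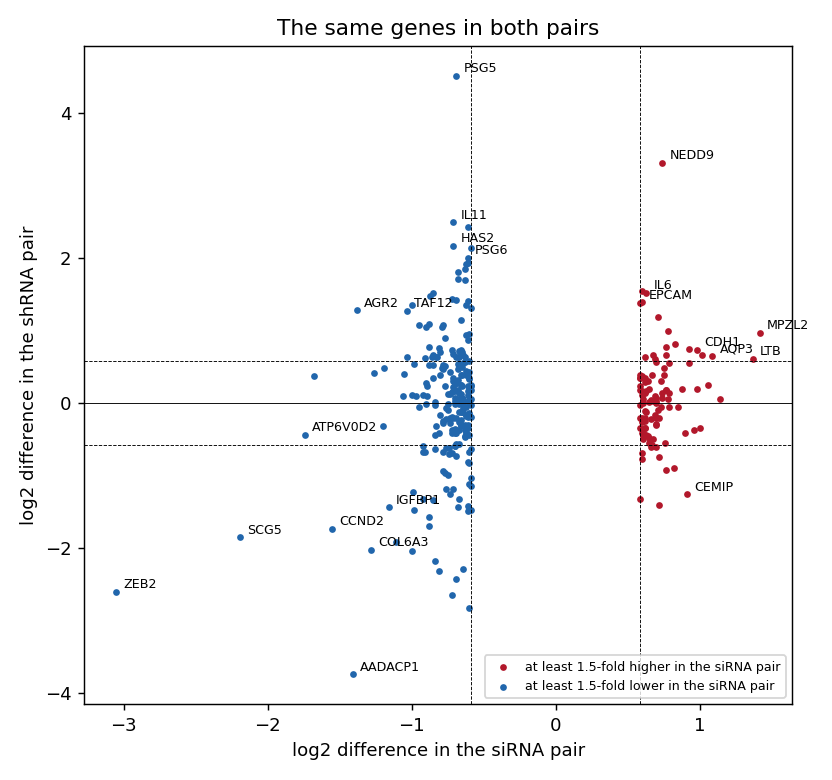
Log2 differences of the 332 genes in the siRNA pair (horizontal) and the stable shRNA pair (vertical), with dashed lines at 1.5-fold. Red genes were higher and blue genes lower in the siRNA pair, and 50 blue points lie past 1.5-fold lower and 51 past 1.5-fold higher in the shRNA pair.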

How the data were processed

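Total RNA of MDA-MB-231 cells was hybridised to Affymetrix U133 Plus 2 arrays. Per the submitters' processing notes, the authors used RMA from affy (versions not given in the sources used here), and what they deposited is 1 log2 value for each probe set and array. This step corrects background, brings the arrays to a shared distribution and summarises probes, which hides any difference in total RNA per cell. Medians of the siRNA arrays were 5.34 and 5.36.

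Of 54675 probe sets, 41097 had 1 gene symbol in the platform annotation, 1801 had several, 11777 were unnamed in the annotation table, and 41043 of the first kind were found in RefSeq. The brightest probe set by the mean of 4 arrays stood for a gene. Genes whose highest value reached the 40th percentile, 4.77, were kept. Differences, counts past 1.5-fold and 2-fold, and list medians were computed in Python 3.11.15 with pandas 2.3.3, and alternative scalings in limma 3.58.1 under R 4.3.3. Each list was described by counts and its median, with no test. The counting step was checked on simulated arrays with genes changed by 2-fold, which does not measure false calls at 1.5-fold in these data.

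The members and the 72 gene lists were chosen with earlier results of these data known. Named genes were ZEB2, genes at 2-fold, genes at 1.5-fold that belong to a list or have a second probe set past 1.5-fold the same way, the 3 genes on either side of the threshold each way, the 2 highest and 2 lowest of lists with at least 10 genes and 70% of 1 sign, and the junction and EMT factor lists, with further list members and single probe sets named after their values were seen. Not every gene of the rule is printed. Lists not described above lay between medians of -0.137 (small nucleolar RNA hosts) and 0.078 (integrins). Alternatives were other ways to choose the probe set, other filters, median centring, quantile normalization, cyclic loess and a shorter promoter window.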

Additional observations from a re-analysis of the deposited data

Results flagged for a closer look

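Some results differed in direction between the siRNA and the shRNA pair, and with 1 array a group the difference was not tested. Genes past 1.5-fold lower in the siRNA pair and higher in the shRNA pair numbered 51, and 10 were the other way round. The former include AGR2, TAF12, EHD3, PSG5, IL11, HAS2 and DDIT4, and the latter CEMIP and ID2. Of the 72 gene lists 44 had medians of opposite sign in the pairs, many of them near 0. Those with a median of at least 0.2 in size in both were ATF4 genes at -0.228 (shRNA 0.695), sterol genes at -0.259 (0.43), metallothioneins at -0.304 (0.302) and PSG and CEACAM genes at -0.295 (1.105).

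Probe sets outside the gene comparison also differed. Of 6359 probe sets that reached the filter level and had no symbol or several, 208 (3.27%) were at least 1.5-fold different, 86 higher and 122 lower, and 14 were at least 2-fold different, 3 higher and 11 lower. One of those at 2-fold, named for KRT34 and an unnamed locus together, read 8.13 with luciferase siRNA and 6.67 with ZEB2 siRNA.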

How the results depend on the processing

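No paired analysis was possible because each group had 1 array, and for the same reason none could be left out. Averaging all probe sets of a gene gave 60 higher and 123 lower genes at 1.5-fold and 3 and 10 at 2-fold, and 54 and 108 of the former were past 1.5-fold with the brightest probe set too. Under the 8 other settings of probe set, filter and scale, the counts at 1.5-fold stayed between 70 and 133 higher and between 188 and 252 lower, with 64.1% to 74.6% lower, and the median of all genes stayed between -0.038 and 0.006. PDE4B turned to 0.25 with the brightest probe set of the siRNA arrays, and PSG6 to 0.47 without cross-hybridising probe sets. The EMT factor list, at 0.106, turned to -0.089 with the filter at the 60th percentile. Without cross-hybridising probe sets metallothioneins turned to 0.049 and PSG and CEACAM genes to 0.084. Of the 15 lists with a median of at least 0.1 in size these 3 turned in sign, none of them under another scaling, whereas 25 of the 57 lists with smaller medians did, 18 of them under a scaling. Counted once for each named gene and alternative setting, 1441 differences moved by less than the standard deviation over genes and 61 by more. A change of filter cannot move a gene's difference, so part of the 1441 was fixed in advance. With probe sets averaged, 83 of 140 named genes that had been past 1.5-fold and were still measured stayed past it. The shorter promoter window gave 11.7% and 11.8% for higher and lower genes. The cause of these changes was not tested. No replicate limits the error, and differences of genes near the filter level are the least certain.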
